A study of Rattus norvegicus with 4 samples.

Results

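Synaptotagmins were followed in cultured rat cortical neurons by the probe sets that the platform annotation assigns to them. A probe set is a group of short probes on the array that are read together, mostly for 1 gene, though some are annotated to several. Of 7 synaptotagmin genes considered (Syt1, Syt2, Syt3, Syt4, Syt5, Syt7 and Syt11), 6 were found, with 7 probe sets among the 1263 that are not array controls. Syt4 had 2 probe sets, U14398_at and U14398_g_at, and the others had 1 each: M64488_at for Syt2, D28512_at for Syt3, U26402_at for Syt5, U20106_at for Syt7 and AF000423_at for Syt11. No probe set carried the symbol Syt1 in the annotation used here, so Syt1 was not analysed.

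The neurons came from the cortex of rats at embryonic day 17 and had grown for 14 days in Neurobasal medium with B27 supplement. Cultures then received either PBS (control, 2 arrays) or 25 mM KCl (2 arrays) for 4 h, and the comparison asks which transcripts respond to depolarization, since raised potassium depolarizes neurons and lets calcium in. Whether the paired arrays stand for separate cultures is not stated in the labels. The p-values thus reflect array-to-array spread that may be purely technical. The description label words all 4 samples as unstimulated, and the groups were therefore taken from the titles, which match the treatment protocols.

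Synaptotagmins are membrane proteins, most of them on secretory vesicles, that carry a pair of C2 domains facing the cytoplasm. In many of them these domains bind calcium and, together with the SNARE proteins, couple calcium entry to vesicle fusion. Others bind calcium poorly or not at all. Syt1 and Syt2 are the fast calcium sensors of transmitter release, and Syt7 is a slower sensor of high affinity. Syt4 and Syt11 form a subgroup whose first C2 domain has a substitution at a residue that binds calcium, and Syt4 is known as a gene induced by neuronal activity and found on peptide vesicles.

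After KCl, 1 Syt4 probe set rose and Syt11 fell, while Syt3 and Syt5 did not pass the test and Syt2 and Syt7 gave no signal above background. Syt4 rose 1.35-fold on U14398_at (log2 change 0.44 ± 0.12, SE; limma adjusted p = 0.0471), and Syt11 fell 1.77-fold (log2 change −0.82 ± 0.17; limma adjusted p = 0.0152). A probe set is called changed at a limma p below 0.05 after Benjamini-Hochberg adjustment over all 947 probe sets tested, and log2 changes are KCl minus control. Of the 6 synaptotagmin probe sets tested, 1 was higher and 1 lower, against 10.8% of all tested probe sets that changed (5.49% higher and 5.28% lower). An unadjusted p below 0.05 was found for 4 of the 6, beside 25.6% of all tested. All 6 had KCl arrays that did not overlap the control arrays, as did 58.0% of all tested probe sets. In 2 of the 6 the KCl arrays lay above (21.4% of all tested) and in 4 below (36.5%). The median log2 change of the 6 was −0.26, beside −0.10 over all tested. Of the 6, 2 were above 0, both of Syt4, beside 39.7% of all tested. A count of 2 in 6 is too small to set the family apart from the rest of the array.

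The promoters of Syt4 and Syt11 are shown because these are the synaptotagmin genes that passed, in opposite directions. The sequences are from RefSeq on build GRCr8, 5′ to 3′ on the strand of each gene, and run from 120 bases before the annotated start of the gene through the 10 bases from it. Capitals mark TGACG, the core of the cAMP response element, in the Syt4 sequence (on the opposite strand, hence read as CGTCA) and GGGCGG, the GC box, in the Syt11 sequence.
Syt4, chr18:23320854-23320983, minus strand: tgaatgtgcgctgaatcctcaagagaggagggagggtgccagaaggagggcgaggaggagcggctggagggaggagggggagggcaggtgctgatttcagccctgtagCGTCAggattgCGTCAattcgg
Syt11, chr2:176529766-176529895, minus strand: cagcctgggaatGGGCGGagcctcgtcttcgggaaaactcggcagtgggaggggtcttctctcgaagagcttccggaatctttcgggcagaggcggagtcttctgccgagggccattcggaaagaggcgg

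The cAMP response element is the site bound by CREB, a factor activated by calcium entry. Promoter windows of 300 bases (250 before the start and 50 from it) were at hand for 4 of the 6 measured genes, Syt2, Syt3, Syt4 and Syt11. The core TGACG was searched on both strands and stood in the Syt4 window 2 times, beginning 12 bases and 1 base before the start. The Syt2, Syt3 and Syt11 windows held no match to these letters, and 21.2% of 33469 rat promoter windows held at least 1. The full palindrome TGACGTCA, which contains the core, was in none of the 4 windows and in 1.83% of all. The AP-1 letters TGANTCA were in none of the 4 and in 7.33% of all. GGGCGG was found 1 time for Syt11 and 2 times for Syt3, and in 33.1% of all. The motifs were chosen after the changes were known, and a match describes the letters only.

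**Figure D1:**
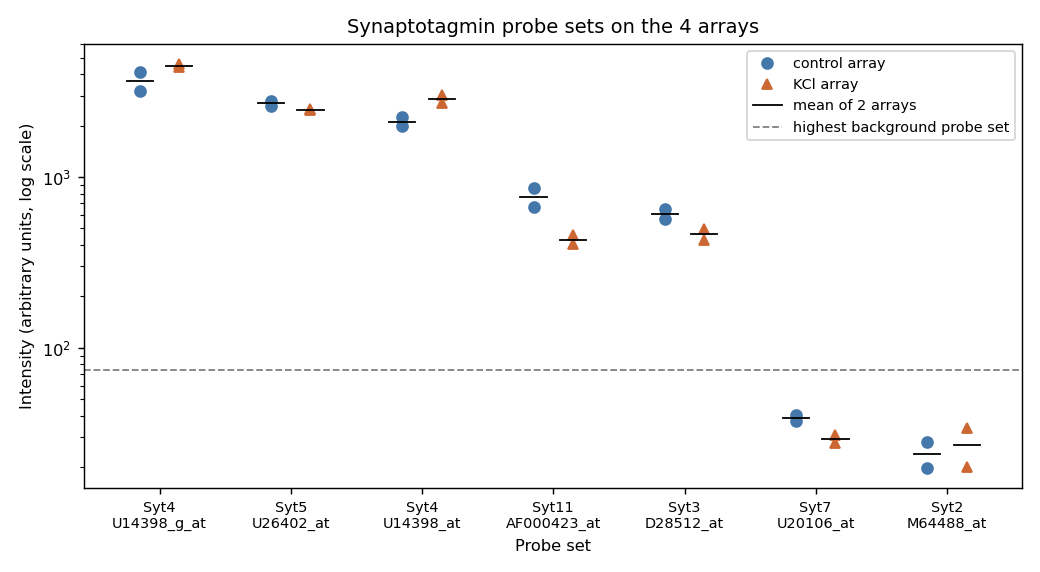
Intensity (arbitrary units, log scale) of the 7 synaptotagmin probe sets, ordered by their control mean, with 1 point per array, control arrays as circles and KCl arrays as triangles, and a bar at the mean of each pair. The dashed line is the highest background value, 73.7, and only the Syt7 and Syt2 points lie under it.

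At rest, among the 6 genes with a probe set, the signal was highest for Syt4 and Syt5. Syt1, without an annotated probe set, was not part of this ranking. The brightest probe set was Syt4 U14398_g_at, with 4094 and 3196 on control 1 and control 2. Syt5 gave 2793 and 2598, and Syt4 U14398_at gave 2247 and 1981. Relative to all 1263 probe sets, the 3 lay between the 91.4th and the 96.3rd percentile of the control arrays. Syt11, with 665 and 867.5, and Syt3, with 646 and 569, formed a middle group between the 79.3rd and the 84.5th percentile. Syt7 (37.0 and 40.6) and Syt2 (28.0 and 19.7) were at the bottom. They lay below 73.7, the highest value reached by any of 19 bacterial or yeast control probe sets (median 9.05), and are called within background.

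The order Syt4 U14398_g_at, Syt5, Syt4 U14398_at, Syt11, Syt3, Syt7, Syt2 was the same on both control arrays. Above background, 3 pairs of neighbours lay close. Syt11 over Syt3 was 1.03 on control 1 and 1.52 on control 2, Syt5 over Syt4 U14398_at was 1.24 and 1.31, and Syt4 U14398_g_at over Syt5 was 1.47 and 1.23. The order of Syt11 and Syt3 is the least firm on control 1 and that of Syt4 U14398_g_at and Syt5 on control 2. The order is one of signal and not of transcript number, since probe sets differ in how well they hybridize. The 2 Syt4 probe sets, designed from the same sequence record, differed in signal, and the reason was not tested. On control 1 U14398_g_at was 1.82 times as bright as U14398_at and on control 2 1.61 times.

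On the KCl arrays the order of signal differed at 2 places above background. Syt4 U14398_at, with 3005 and 2714, now lay above Syt5, with 2464 and 2494. Syt3, with 425 and 499, now lay above Syt11, with 403 and 457. Syt4 U14398_g_at remained the brightest, with 4578 and 4409. Syt7 and Syt2, both within background, had no fixed order.

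Syt4 encodes the activity-regulated synaptotagmin of peptide vesicles. On U14398_at its intensity went from 2114 ± 188 in controls to 2859 ± 206 after KCl (SD, n = 2 arrays per group), and both KCl arrays lay above both control arrays. By its p this probe set was 101st of the 947, with 102 called, so it passed narrowly. On the brighter U14398_g_at the intensity went from 3645 ± 635 to 4494 ± 119.7, a ratio of 1.24. The KCl arrays again lay above the controls, but the control pair was spread more widely, by 0.36 in log2 against 0.18 on U14398_at, and the change of 0.31 ± 0.13 did not pass (limma adjusted p = 0.179; 95% interval 0.01 to 0.61). The intervals of the 2 probe sets overlap over most of their length, that of U14398_at being 0.17 to 0.70. The call on U14398_at was lost without control 1, without control 2 and without KCl 1 (limma adjusted p = 0.19, 0.298 and 0.105), and held without KCl 2 (0.00626). It was also lost with quantile normalization, with dim probe sets kept and with other variance models, with the log2 change between 0.35 and 0.53 when an array was left out.

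Syt11 encodes a synaptotagmin that does not bind calcium and is known for restraining endocytosis. Its intensity was 665 and 867.5 in controls and 403 and 457 after KCl, so that both KCl values lay below both control values. The mean fell from 766 ± 143 to 429.95 ± 38.1. The gap between the control arrays, 0.38 in log2, was smaller than the change of −0.82 (95% interval −1.20 to −0.44). Without KCl 1 the log2 change was −0.73 and without KCl 2 it was −0.91, with the spread of the probe set then left to the control pair. Without control 1 the log2 change was −1.02 (limma adjusted p = 0.131) and without control 2 it was −0.63 (limma adjusted p = 0.256), and neither passed. It did not pass with quantile normalization (log2 change −0.78; limma adjusted p = 0.0735) or without the intensity trend of the variance (limma adjusted p = 0.141).

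Syt3 encodes a calcium-binding synaptotagmin that has been placed at the postsynaptic side, where it takes part in AMPA receptor uptake. Its probe set read 646 and 569 in controls and 425 and 499 after KCl. All KCl values were below the controls, and the mean was 608 ± 54.2 in controls and 462 ± 52.4 after KCl. The log2 change of −0.40 ± 0.15 had an unadjusted p of 0.029 and did not pass (limma adjusted p = 0.145; 95% interval −0.74 to −0.05). Without KCl 2 it passed as lower (log2 change −0.51; limma adjusted p = 0.0367).

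Syt5 encodes a calcium-binding synaptotagmin of secretory vesicles. RefSeq lists SytIX as another name of Syt5 and Sytv as another name of Syt9, so that the numbering of these genes is exchanged in part of the literature. The Syt5 probe set was among the steadiest of the family. The control pair differed by 0.10 in log2 and the KCl pair by 0.02. The mean was 2696 ± 138 in controls and 2479 ± 20.9 after KCl, with both KCl arrays below both controls. The log2 change was −0.12 ± 0.10 (limma adjusted p = 0.516). Its 95% interval, −0.36 to 0.12, takes in both a small fall and a small rise.

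Syt7 and Syt2 could not be followed. Syt7 was at 37.0 and 40.6 in controls and 30.8 and 27.8 after KCl, all within background. Its log2 change of −0.41 had a 95% interval of −1.76 to 0.95 and depends on that background. Syt2, at 28.0 and 19.7 in controls and 34.0 and 20.1 after KCl, was among the dimmest 25% of probe sets, which were not tested. These arrays show only that neither probe set rose above 73.7 on any of the 4 arrays.

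**Figure D2:**
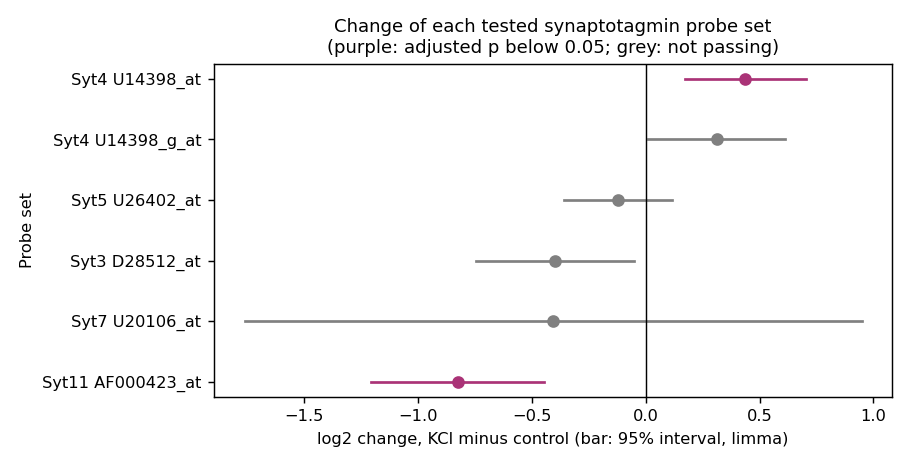
Change of the 6 tested synaptotagmin probe sets, as log2 of KCl minus control with the 95% interval from limma (n = 2 arrays per group). Only the intervals of Syt4 U14398_at (0.17 to 0.70) and Syt11 (−1.20 to −0.44), drawn in purple, belong to changes that passed, and the Syt7 interval, within background, is the widest.

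Whether the isoforms changed unequally was tested on the ratio of each pair of synaptotagmin probe sets within an array, where any scaling of the array cancels. Each ratio was fitted together with the ratios of all other tested probe sets to the same reference, and the larger adjusted p of the 2 ways of taking the reference is given. Of 15 pairs, 5 passed, beside 11.2% of all 447931 pairs of tested probe sets on the array. In this first test the spread of the reference enters every ratio at once, so its p depends on which probe set is the reference. For Syt11 and U14398_at the limma adjusted p was 3.12e-06 with U14398_at as the reference and 0.000173 with Syt11. The p-values of the first test are to be read with that limit. A second test, added after the data were seen, used the variance prior of the single probe sets in place of one taken from the ratios. With it 3 of the 15 passed, beside 7.74% of all pairs. Pairs that share a probe set are not independent, and each of the 5 contained a Syt4 probe set. The intervals below are from this second test.

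Syt4 and Syt11, the related pair, moved furthest apart. On U14398_at the signal was 3.38 and 2.28 times that of Syt11 in controls and 7.46 and 5.94 times after KCl. The groups did not overlap, and the ratio rose 2.40-fold (log2 change 1.26, interval 0.74 to 1.79; limma adjusted p = 0.000173, and 0.00957 with the second test). The brighter U14398_g_at gave 6.16 and 3.68 times the Syt11 signal in controls and 11.4 and 9.65 times after KCl. That ratio rose 2.20-fold (limma adjusted p = 0.000214, and 0.0236 with the second test). Neither ratio passed without the intensity trend of the variance (limma adjusted p = 0.0571 and 0.0955) or with an ordinary t statistic (adjusted p = 0.21 and 0.34). Against all tested probe sets, 28.6% of the ratios to U14398_at, 15.8% of those to U14398_g_at and 28.6% of those to Syt11 passed, so that a ratio of this kind was not rare for any of them. The U14398_at ratio passed without control 1 and without control 2 (limma adjusted p = 0.00139 and 0.0471) but not without KCl 1 or without KCl 2 (0.326 and 0.0807). The U14398_g_at ratio passed without control 1 (0.029) and did not pass without control 2, KCl 1 or KCl 2 (0.189, 0.264 and 0.0711).

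Syt4 also rose relative to Syt3. The ratio of U14398_at to Syt3 was 3.48 on both control arrays and rose to 7.07 and 5.44 after KCl (1.78-fold; limma adjusted p = 0.00517, and 0.0339 with the second test). That of U14398_g_at rose 1.64-fold (limma adjusted p = 0.031) and did not pass with the second test (0.0544). These ratios lost their call in most single-array omissions, that of U14398_at passing without KCl 2 (0.0388) and that of U14398_g_at in none. With the replicate block neither passed (limma adjusted p = 0.0766 and 0.242).

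The change of order between Syt4 U14398_at and Syt5 was less secure. Their ratio was 0.80 and 0.76 in controls and 1.22 and 1.09 after KCl, on opposite sides of equal signal (1.47-fold; limma adjusted p = 0.027). It did not pass with the second test (0.0712) or with any 1 array left out (0.0703 to 0.197). The exchange of Syt3 and Syt11 did not pass. Syt3 over Syt11 was 0.97 and 0.66 in controls and 1.05 and 1.09 after KCl (log2 change 0.43, interval −0.10 to 0.96; limma adjusted p = 0.273). Syt11 over Syt5 did not pass either, with a log2 change of −0.70 (interval −1.18 to −0.23; limma adjusted p = 0.0561). Syt4 U14398_at over U14398_g_at was 0.55 and 0.62 in controls and 0.66 and 0.62 after KCl, with overlap between the groups, and a difference between the 2 probe sets of the gene was not detected (log2 change 0.12, interval −0.21 to 0.46; limma adjusted p = 0.751).

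**Figure D3:**
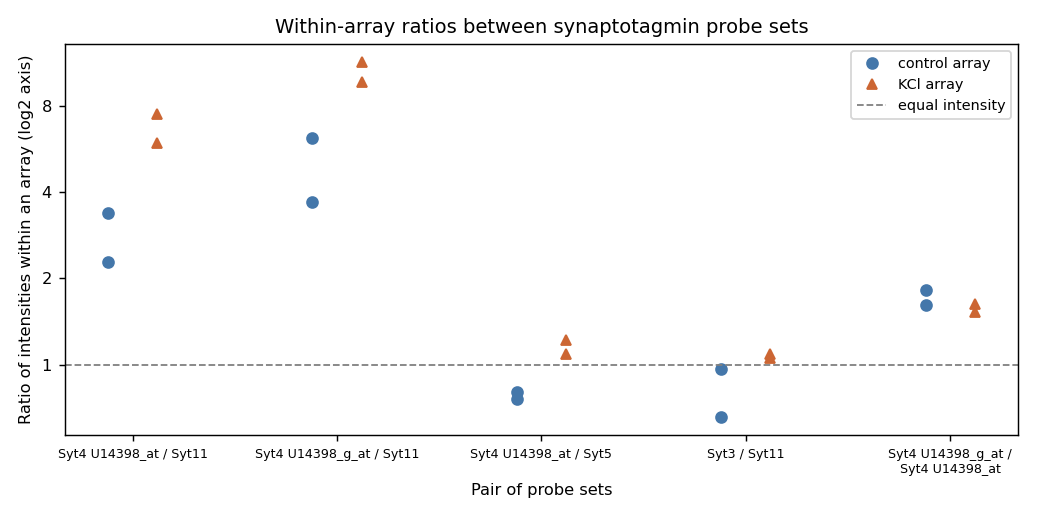
Ratio of intensities within an array (log2 axis) for 5 pairs of synaptotagmin probe sets, control arrays as circles and KCl arrays as triangles, with a dashed line at equal intensity. Both Syt4 probe sets lie higher relative to Syt11 on the KCl arrays (5.94 to 11.4) than on the control arrays (2.28 to 6.16), the Syt4 to Syt5 ratio crosses the line, and the 2 Syt4 probe sets keep overlapping ratios to each other.

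The array held probe sets for 4 further synaptotagmin genes, and none of them passed. Syt8 had the highest values, with 77.0 and 36.9 in controls and 105.1 and 121.4 after KCl. Its log2 change of 1.08 ± 0.41 did not pass (limma adjusted p = 0.145). Syt9 lay between 51.3 and 75.5 and Syt6 between 24.7 and 60.8, at or near background. Syt10, at 7.80 to 12.3, was not tested. With limma 1 of these 3 tested probe sets had an unadjusted p below 0.05, that of Syt8, beside 25.6% of all tested.

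As a measure of the stimulus, Fos, Nr4a1 and Bdnf, chosen as genes known to respond to depolarization, changed far more than Syt4 did on most of their probe sets. The 3 probe sets of Fos, an immediate-early transcription factor gene, rose between 14.4-fold and 23.0-fold. Both probe sets of Nr4a1, an immediate-early nuclear receptor gene, rose (7.06-fold and 9.90-fold). Of the 7 probe sets of Bdnf, the neurotrophin gene, 5 rose, between 2.95-fold and 7.15-fold. Not every gene called higher moved this far, as Egr1 rose 1.72-fold on AF023087_s_at (limma adjusted p = 0.00421). Of the dense-core vesicle and peptide processing list, 1 of 10 genes was on the array. This was Vgf, a precursor of secreted peptides, which went from 581.5 and 450.1 to 1115 and 1267 and rose 2.32-fold (limma adjusted p = 0.00166).

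The proteins that work with synaptotagmins in vesicle release were read from a list of 48 genes, of which 19 were on the array and 18 were tested, on 27 probe sets. In all, 1 probe set rose, 2 fell and 24 did not pass, which is 11.1% passing beside 10.8% of all tested. The list's median log2 change was −0.15, beside −0.10 over all tested. Snap25, the SNARE of the plasma membrane that Syt1 contacts, rose 1.35-fold on AB003991_at, from 2273 and 2132 to 2933 and 3011 (limma adjusted p = 0.0316). Its 3 other probe sets were also above 0, with log2 changes of 0.26 to 0.32, and did not pass. Nrxn2, a presynaptic adhesion gene, fell 1.51-fold on M96376_at, from 3028 and 3084 to 1895 and 2167 (limma adjusted p = 0.0114). Another of its probe sets, at −0.07, did not pass. Sncb, the β-synuclein gene, fell 1.60-fold, from 794 and 770 to 501 and 479 (limma adjusted p = 0.012).

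The rest of the release machinery did not pass. The SNARE genes Stx1a and Stx7 had log2 changes of −0.25 and −0.50, and the vesicle proteins Syp (synaptophysin), Syn1 (synapsin 1) and Rab3a had −0.29, −0.13 and −0.18. Syn2, which encodes synapsin 2, had −0.44 ± 0.15 on M27925_at (limma adjusted p = 0.117), with 1012 and 859.5 in controls and 617.5 and 766 after KCl. The calcium channel genes of the release site, Cacna1a and Cacna1b, had values of −0.34 to 0.11 on 5 tested probe sets. In this list 11 of 27 probe sets had an unadjusted p below 0.05, beside 242 of all 947 (25.6%). None of the 3 calls held without control 1 or without control 2, where 4 and 3 of the list's probe sets had an unadjusted p below 0.05 in limma, beside 175 and 158 of the 947.

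**Figure D4:**
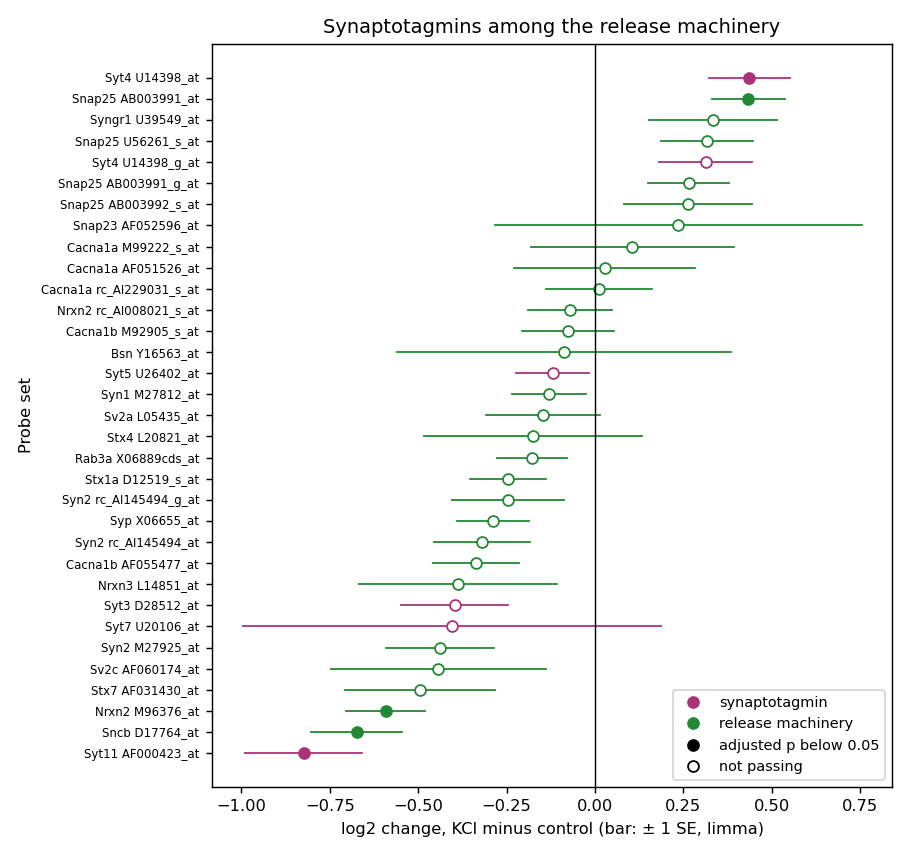
Log2 change (KCl minus control, bars ± 1 SE from limma, n = 2 arrays per group) of the 6 tested synaptotagmin probe sets in purple and the 27 tested release machinery probe sets in green, filled where the adjusted p was below 0.05. Syt4 U14398_at (0.44) and Snap25 AB003991_at (0.43) are at the top, and Syt11 (−0.82) lies below Sncb (−0.67) and Nrxn2 (−0.59) at the bottom.

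The tested probe sets nearest in pattern were found by the distance between log2 values over the 4 arrays, each centred on its mean, among 852 candidates with 1 symbol. For Syt4 U14398_at they were Maob (monoamine oxidase B), Cit (citron kinase) and a probe set of Glul (glutamine synthetase), at distances of 0.05, 0.08 and 0.12 in log2 units. None of these 3 passed by itself in limma (adjusted p = 0.525, 0.333 and 0.158), and 1, that of Glul, had an unadjusted p below 0.05 (0.034). Elsewhere in Glul, rc_AI232783_s_at and M91652complete_seq_g_at passed as higher (limma adjusted p = 0.0253 and 0.026), while rc_AI012265_i_at did not pass (0.241). Maob was within background on both control arrays (64.6 and 57.4) and close to it after KCl (83.9 and 75.8). For Syt11 the nearest were Pdgfa (a platelet-derived growth factor chain), Scarb1 (a lipoprotein receptor) and Oprl1 (the nociceptin receptor), at distances of 0.07, 0.08 and 0.14. Of these Scarb1 fell 1.73-fold (limma adjusted p = 0.0173), and Pdgfa and Oprl1 did not pass (0.051 and 0.0858). The likeness is over 4 arrays only and has no test.

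The arrays of a group were alike, and cell type markers moved with the treatment. Log2 intensities of the tested probe sets had a Pearson r of 0.97 within each pair and of 0.93 to 0.94 between control and KCl arrays. These values are across probe sets, which are not independent replicates. Of 23 tested probe sets for neuron markers, 19 were above background on all arrays, 1 rose and none fell, with summed intensities of 41702 to 42636 in controls and 40286 to 40749 after KCl. Of 15 for astrocyte markers, 9 rose and none fell, and the sums went from 9322–9464 to 16191–20919. Apoe rose 2.41-fold, Slc1a3 2.41-fold and S100b 2.59-fold. No probe set carried the symbol Gfap in the annotation used here. Probe sets without a symbol were not matched to genes, so Gfap was not assessed. Of 7 for inhibitory neurons, 4 fell and none rose, the sums going from 16696–16822 to 10874–11551. Gad1 fell 3.45-fold on X57573_at, Slc32a1 2.99-fold on AF030253_at and Sst 2.92-fold on M25890_at. Another Sst probe set fell 2.00-fold, and another of Slc32a1 did not pass (log2 change −1.09; limma adjusted p = 0.145). Oligodendrocyte markers had 0 of 6 passing in limma (0 with an unadjusted p below 0.05, also by an ordinary t statistic), with sums of 816 to 869 and 764 to 857. Cnp, at 174 to 199 and 138 to 154, and Mag were above background on all 4 arrays and did not pass. Microglial markers, with 2 probe sets tested, were all within background. Of the endothelial and fibroblast list 1 probe set was tested, Vcam1, with 76.9 and 80.9 in controls and 129 and 131 after KCl (limma adjusted p = 0.137). The part of these shifts in the values of Syt4 and Syt11 was not tested, and in bulk RNA fewer cells of a type and less RNA per cell cannot be told apart. For the hexokinase control, the 3′ over the 5′ signal, which depends on RNA integrity, was 2.25 and 2.00 in controls and 2.49 and 2.67 after KCl, while those of Gapdh (1.17 to 1.23) and β-actin (1.08 to 1.12) overlapped between groups.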

How the data were processed

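Per the labels' protocols, biotinylated cRNA from 5 µg of total RNA was hybridized to 1-colour Affymetrix arrays. The authors deposited linear intensities, 1 per probe set and array; how the probes were combined and scaled is not given in the sources used here. Trimmed means (2% from each end) of the 4 arrays lay between 501.98 and 502.36, so the values had been brought to 1 level and were used as deposited, in log2.

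Of 1322 probe sets, 59 array controls were left out, as were the dimmest 25% by mean over the 4 arrays (316, means up to 33.3), leaving 947. Of the 1263, the platform annotation gave 1 symbol to 1137, several to 8 and none to 118. The test was limma 3.58.1 in R 4.3.3 (lmFit, eBayes with an intensity trend), two-sided. An exact permutation test of 2 against 2 arrays cannot go below p = 0.333. The number of arrays limits precision, with a median SE of 0.21 in log2. The tests were also run on simulated data with independent noise, and the outcome is not reported here.

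The members, lists and tests were chosen with earlier results of these data known. Every member is described. Of the release machinery list, probe sets that passed and the 4 with the smallest p were named; of marker lists, up to 3 above background with the smallest p; and the 3 nearest patterns of each member that passed. Fos, Nr4a1 and Bdnf serve as known responders, and other names were chosen after their values were seen. Same-numbered arrays did not deviate together (r = −0.03), so the numbers were not used as pairs. Alternatives were other normalizations, a pseudocount, filters, a replicate block, arrays left out and variance models.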

Additional observations from a re-analysis of the deposited data

How the results depend on the processing

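With 2 arrays per group few calls held throughout. Of all tested probe sets 102 passed. With the replicate number as a block 50 did (35 higher, 15 lower), without the intensity trend 21 (18 higher, 3 lower), and with an ordinary t statistic 0, where 157 had an unadjusted p below 0.05. With 1 array left out the count ran from 11 (without control 2) to 178 (without KCl 2). The lower calls numbered 50, against 31 with quantile normalization and 33 with no filter on dim probe sets.

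Of the synaptotagmin probe sets 2 passed. With quantile normalization 0 did in limma (3 with an unadjusted p below 0.05), with no filter 1 (Syt11), with the replicate block 1 (Syt11; Syt4 U14398_at had an adjusted p of 0.0864), without the intensity trend 0 (2 unadjusted), and with an ordinary t statistic 0 (0 unadjusted). With 1 array left out the count ran from 0 to 3. No tested synaptotagmin probe set changed direction under any alternative that gave it a value. Release machinery calls numbered 3, and 0 without the intensity trend or with an ordinary t statistic (3 and 6 unadjusted), with 0 to 5 when 1 array was left out. Of the ratio pairs 5 passed, with the replicate block 4, without the intensity trend 0, with an ordinary t statistic 0, with the added variance prior 3, and with 1 array left out 0 to 2. With the replicate block both ratios of Syt4 to Syt3 were lost (adjusted p = 0.0766 for U14398_at and 0.242 for U14398_g_at) and Syt11 over Syt5 was gained (0.00205). The ratio of Syt3 to Syt7, which lies within background, had a log2 change of 0.01 that turned to −0.11 with a pseudocount of 16, and ran from −0.18 (without KCl 2) to 0.20, with −0.15 without control 2. The cause of these differences was not tested. Leaving out an array leaves the spread of each probe set to the pair of the other group.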
